A study of Mus musculus with 15 samples.

Results

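The miR-148 and miR-152 family of the mouse comprises miR-148a, miR-148b and miR-152. It was followed here in pancreatic α and β cell lines and in α cells exposed to proinflammatory cytokines. All assays named for one of these miRNAs were taken, whichever arm of the hairpin they detect. This gave 5 of the 584 miRNA assays of the arrays: mmu-miR-148a, mmu-miR-148b and mmu-miR-152 on card A, and mmu-miR-148a* and rno-miR-148b-5p, a rat assay, on card B. TaqMan rodent low density arrays, read by real-time PCR, gave the miRNA levels of 15 samples, with 3 replicates in each of 5 conditions. αTC1-6 is a mouse glucagonoma line that models α cells, and βTC1 is a mouse insulinoma line that models β cells. Untreated αTC1-6 and untreated βTC1 harvested at 24 h gave the steady state. αTC1-6 were also harvested untreated at 48 h, and after 24 h or 48 h with a mixture of TNF-α and IFN-γ at 1000 IU/ml each and IL-1β at 50 IU/ml. Each cell type is represented by 1 tumour-derived line, and no cytokine-treated βTC1 sample was analysed here. The methods describe the replicates as biologically independent.

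MiRNAs guide silencing complexes to messenger RNAs, mainly by pairing of the seed, the bases near their 5′ end, with the target. Members with 1 seed can therefore share targets, and DNA methyltransferase 1 is among the best known targets of this family. In β cells the family has been linked to insulin content, together with miR-24, miR-26, miR-182 and others. The strand named miR-148a, miR-148b or miR-152 comes from the 3′ arm of its hairpin. Assays named with a star or with 5p detect the strand of the 5′ arm, which is usually the less abundant.

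The mature strands are shown because the seed joins the family, whereas the remaining bases are all that an assay can use to tell its members apart. Sequences are those of the RefSeq miRNA annotation of mouse (GRCm38.p6), 5′ to 3′, with the seed (bases 2 to 8) in capitals.
mmu-miR-148a-3p: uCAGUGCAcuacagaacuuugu
mmu-miR-148b-3p: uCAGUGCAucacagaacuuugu
mmu-miR-152-3p: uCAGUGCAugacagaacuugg
mmu-miR-148a-5p: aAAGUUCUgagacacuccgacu
mmu-miR-148b-5p: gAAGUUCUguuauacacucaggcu
Of 1679 mature miRNAs in that annotation, 3 carry the seed CAGUGCA, and they are the 3′ strands of this family. Counted from the 5′ end, miR-148a-3p and miR-148b-3p differ at 2 positions (C9U and U10C, miR-148a first) and share their last 12 bases. MiR-152-3p is 21 bases long and differs from miR-148b-3p at C10G and U20G, with the base of miR-148b first. The 5′ strands of miR-148a and miR-148b share the seed AAGUUCU, which no other mature miRNA of the annotation has. The mouse 5′ strand of miR-148b is printed for the rat assay, whose own sequence was not used here. Reverse transcription in this kind of assay is primed from the 3′ end, and whether the assays of miR-148a and miR-148b read each other's product was not tested.

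The members lie on different chromosomes. In GRCm38.p6, miR-148a-3p lies at chr6:51269829-51269850 on the minus strand, miR-148b-3p at chr15:103285185-103285206 on the plus strand and miR-152-3p at chr11:96850439-96850459 on the plus strand. Mir148b lies within Copz1 and Mir152 within Copz2, paralogous genes for ζ subunits of the COPI vesicle coat. Mir148a lies within the gene model Gm38821, between Npvf and Nfe2l3. The deposited tables name no genome build, so these positions describe the miRNAs and not the measurements.

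Levels are given as ΔCt, for which the threshold cycle (Ct) of miR-26a was subtracted from that of the assay, sample by sample. MiR-26a was read in 1 well of 1 card, so the ΔCt of assays on the other card can also hold an offset between the cards. A unit is 1 PCR cycle on the log2 scale, and a lower ΔCt stands for more miRNA. Values of different assays do not rank the miRNAs, since assays may differ in efficiency. Differences between groups are given as log2 differences of the level, positive where the first group is higher. MiR-26a is itself one of the miRNAs linked to insulin content, and its Ct lay between 16.975 and 18.983 in the 15 samples. Over all assays tested, the median log2 difference relative to miR-26a was -0.52 for αTC1-6 against βTC1, -0.15 for cytokines at 24 h and -0.51 at 48 h. Family values are read beside these medians, which pool cards A and B. Where samples were centred on their median instead, this was done within each card.

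The 3 assays of the 3′ strands gave a Ct in every sample, apart from 1 blank value of miR-152. All 5 family assays passed the filter on undetermined values in each comparison. The pancreatic endocrine miRNA miR-375 was abundant in both lines (Ct 14.3 to 16 in αTC1-6 and 13.4 to 14.6 in βTC1), and miR-7a had a Ct of 19.9 to 23.0. MiR-217, known from acinar pancreas, had a Ct of 24.5 to 27.0 in the 3 βTC1 samples and none in the 12 αTC1-6 samples of the normalized table. The other acinar markers had a Ct in 3 of 3 βTC1 samples, and in 1 (miR-216a) and 4 (miR-216b) of 12 αTC1-6 samples. In the non-normalized table miR-217, miR-216a and miR-216b had a Ct in 1, 2 and 7 αTC1-6 samples. Of the mesenchymal markers, miR-145 and miR-199a-3p had a Ct between 27.8 and 31.0 in all samples of both lines, whereas miR-143 and miR-214 had one in 8 and 4 of 12 αTC1-6 samples and in 0 of 3 βTC1 samples. The non-normalized table gives them a Ct in 11 and 10 αTC1-6 samples and in all 3 βTC1 samples. The blood-derived markers miR-142-3p and miR-223 had a Ct between 29.9 and 36.0 throughout, miR-142-5p had one in 3 αTC1-6 samples and 1 βTC1 sample (8 and 3 in the non-normalized table), and miR-451 in 8 and 3 (9 and 3). The part of other cell types in the family's values was not tested.

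**Figure D1:**
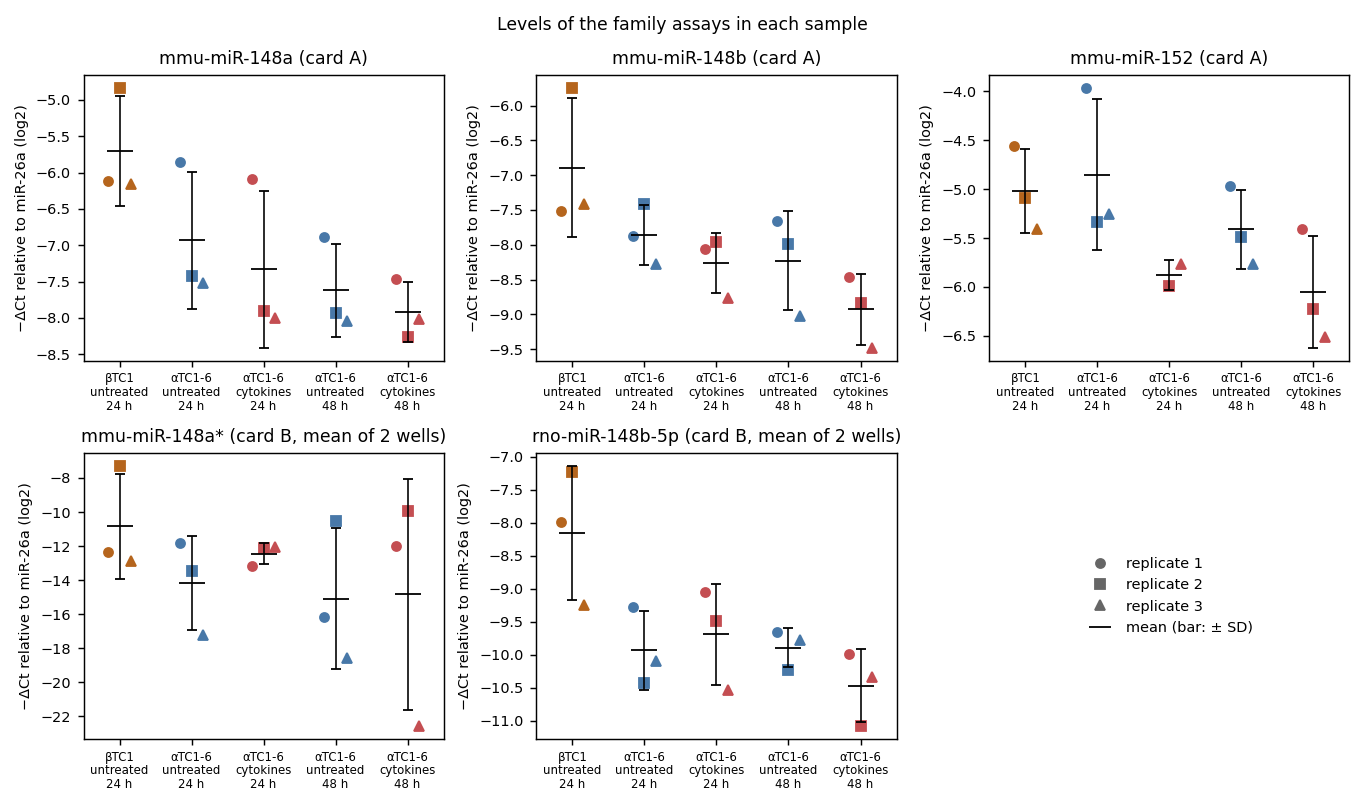
Levels of the 5 family assays as negative ΔCt relative to miR-26a (log2, higher means more miRNA), with a point for each of 3 replicates of 5 conditions and the mean ± SD. miR-148a, miR-148b and both 5′ strands have their highest mean in βTC1, miR-152 does not, and mmu-miR-148a* spreads widely. Its lowest point, cytokines 48 h replicate 3, is undetermined in both wells and set to a Ct of 40.

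At steady state, the means of miR-148a, miR-148b and both 5′ strands were lower in αTC1-6 than in βTC1, and that of miR-152 was nearly equal. Of the 5 assays, 0 passed the threshold of the Limma test (Benjamini-Hochberg adjusted p under 0.05), against 29.6% of the 480 assays tested. Over all assays, 101 of 539 passed in the non-normalized table and 97 of 433 with undetermined wells left out, and of the family 0 did. At an unadjusted p under 0.05 the family had 1 assay, rno-miR-148b-5p, against 37.9% of all. The same assay was the 1 whose samples did not overlap between the lines, against 45.8% of all. The family median was -1.23, and 4 of 5 differences were below 0, as were 61.9% of all differences.

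For miR-148a, ΔCt was 5.85, 7.43 and 7.52 in untreated αTC1-6 and 6.12, 4.83 and 6.16 in βTC1. The lines overlapped through αTC1-6 replicate 1, the only αTC1-6 sample within the range of βTC1. The log2 difference was -1.23 with a 95% interval of -2.97 to 0.50 (Limma test, adjusted p = 0.219, n = 3 and 3). Before normalization, Ct values were 24.8, 25.0 and 25.2 in αTC1-6 against 24.5, 23.6 and 23.7 in βTC1. On that scale the lines did not overlap, nor did they for either 5′ strand, which makes 3 of 5 family assays against 48.5% of all. For mmu-miR-148a* this rests on averages of 30.8 and 30.7 at the nearest, and on an undetermined well set to 40. In the first well alone, αTC1-6 replicate 3 had a Ct of 29.772, below 31.351 and 30.87 in βTC1, so the lines overlapped. The difference of miR-148a was -1.09 (Limma test, adjusted p = 0.0681). When βTC1 were compared with the untreated αTC1-6 of 48 h, the log2 difference was -1.92 (Limma test, adjusted p = 0.0553). These αTC1-6 samples also differ from βTC1 in time, and had a Ct in 304 to 324 card A assays, against 242 to 276 in βTC1. Centred on the median, the 24 h difference of miR-148a was -0.80 (Limma test, adjusted p = 0.209). Over all alternatives at steady state, its adjusted p in the Limma test lay between 0.0553 and 0.509.

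MiR-148b had a ΔCt of 7.88, 7.41 and 8.27 in αTC1-6 and of 7.52, 5.74 and 7.41 in βTC1. As for miR-148a, βTC1 replicate 2 had the highest level of the 6 samples. The log2 difference was -0.96 with an interval of -2.58 to 0.66 (Limma test, adjusted p = 0.304, n = 3 and 3). Without βTC1 replicate 2 it was -0.39, and that of miR-148a was -0.80.

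MiR-152 had a ΔCt of 3.96, 5.34 and 5.25 in αTC1-6 and of 4.56, 5.09 and 5.41 in βTC1. The ranges overlapped, and αTC1-6 replicate 1 had the highest level of the 6 samples. The log2 difference was 0.17 with an interval of -1.25 to 1.60 (Limma test, adjusted p = 0.837, n = 3 and 3), so changes of about 1 cycle in either direction are not resolved. Its sign turned with the reference, from 0.61 when samples were centred on their median to -0.08 with U6 and small nucleolar RNAs.

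In the untreated αTC1-6 of 24 h, the Ct of miR-152 was 22.941, 22.884 and 22.94 in the 3 samples (SD 0.0327). The SD of its ΔCt was 0.773. In the untreated αTC1-6 of 48 h the order was the opposite, with an SD of 0.796 for Ct and 0.410 for ΔCt. Over all samples, 9 of 14 Ct values of miR-152 had a decimal part of 0.9 or more, against 10% for an even spread. The part of this clustering in the SD of 0.0327 was not tested. The Ct of miR-26a in the 24 h samples was 18.983, 17.548 and 17.686. Replicate 1, with the highest Ct of miR-26a, had the lowest ΔCt of both miR-148a and miR-152. The same held for both 5′ strands, but miR-148b had its lowest ΔCt in replicate 2 (7.41, against 7.88 in replicate 1).

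The 5′ strand of miR-148b, read in 2 wells by rno-miR-148b-5p, had a ΔCt of 9.27, 10.43 and 10.10 in αTC1-6 and of 7.98, 7.23 and 9.24 in βTC1. All αTC1-6 samples lay below all βTC1 samples in level, but the nearest ones were only a few hundredths of a cycle apart. The log2 difference was -1.79 with an interval of -3.50 to -0.08 (Limma test, unadjusted p = 0.0433 in the fit, adjusted p = 0.219, n = 3 and 3). On Ct without normalization it was -1.64 and passed the threshold (Limma test, adjusted p = 0.0415). At that setting 32.1% of the 480 assays passed. Of all alternatives run for the 5 comparisons, this was the only one in which a family assay passed.

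The 5′ strand of miR-148a, mmu-miR-148a*, was read less reliably. Of 15 pairs of duplicate wells, 11 had a Ct in both wells, 3 in one well and 1 in neither. Where both had a Ct, the wells differed by a median of 1.28 cycles (range 0.259 to 3.93), against 0.0828 cycles for rno-miR-148b-5p and 0.299 cycles for all card B assays in 2 wells. At steady state its mean ΔCt was 11.79, 13.46 and 17.20 in αTC1-6 and 12.33, 7.29 and 12.88 in βTC1, and the lines overlapped. αTC1-6 replicate 3 and βTC1 replicate 2 lay farthest apart. The log2 difference of -3.32 had an interval of -8.43 to 1.80 (Limma test, adjusted p = 0.416, n = 3 and 3). With the first well alone it was -0.74.

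**Figure D2:**
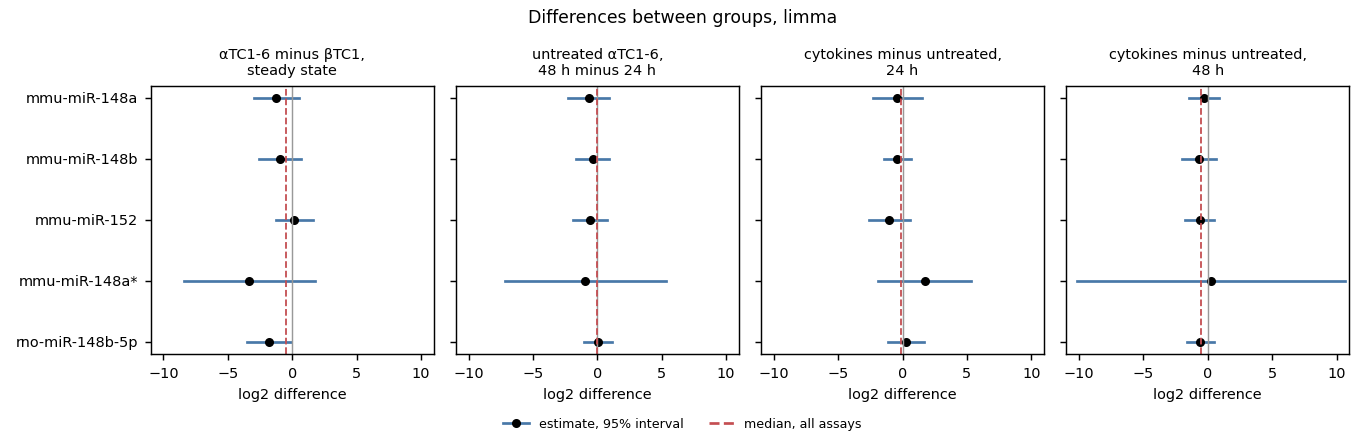
Log2 differences of the 5 family assays in 4 comparisons (points, with 95% intervals from limma) beside the median difference of all assays tested (dashed line). The fits are unpaired. Apart from rno-miR-148b-5p at steady state (-3.50 to -0.08), every interval shown includes 0, and those of mmu-miR-148a* are the widest.

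The Ct values of the family were not evenly spread between cycles. Of 44 Ct values of the 3 card A assays, 25 (56.8%) lay in the last 0.1 cycle below a whole number, where an even spread would place 10%. For miR-152 this held for 9 of 14 values. Over all 4289 Ct values of card A the share was 43.5%, and for miR-26a it was 6 of 15 (40.0%). The part of this clustering in the comparisons was not tested.

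**Figure D3:**
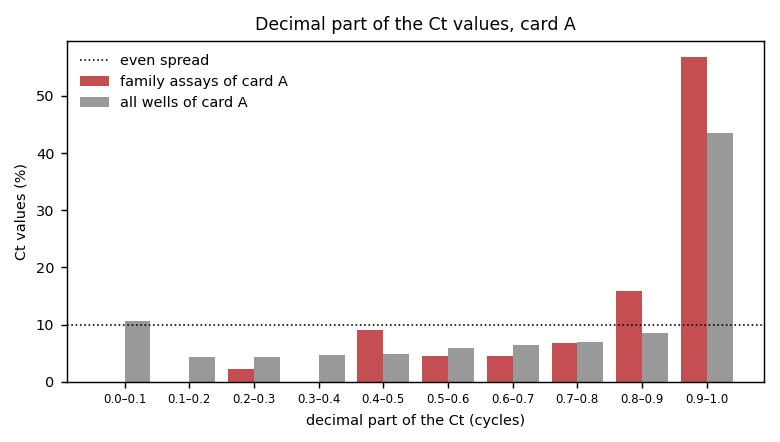
Decimal part of the Ct of the 3 family assays of card A (44 values) and of all wells of card A (4289 values), as the percentage of values in each 0.1 cycle. The last bin, from 0.9 to 1.0, holds 56.8% of the family values and 43.5% of all values. The dotted line is an even spread.

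Differences in Ct between members of the same sample do not contain miR-26a, and they were compared between groups for 5 pairs of assays in 4 comparisons. The Ct of miR-148a minus that of miR-152 was 1.89, 2.10 and 2.26 cycles in untreated αTC1-6 of 24 h. It was 1.56, -0.26 and 0.74 cycles in βTC1, where replicate 2 was the only sample of the series with the lower Ct for miR-148a. The lines did not overlap, and the means differed by 1.40 cycles, with relatively less miR-148a in αTC1-6 (two-sided exact permutation test, p = 0.1, the smallest that 3 against 3 samples can give, Benjamini-Hochberg adjusted p = 1.0 over 20 tests). Without βTC1 replicate 2 they differed by 0.93 cycles. In all 11 αTC1-6 samples with both values, treated ones included, the difference stayed between 1.51 and 2.45 cycles (median 2.05). The lowest of these lay just under the highest βTC1 value. Of the Ct values of miR-148a and miR-152, 46.7% and 64.3% lay in the last 0.1 cycle below a whole number. The part of this clustering in the gap was not tested.

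For miR-148b minus miR-152, the difference was 3.92, 2.07 and 3.02 cycles in αTC1-6 and 2.96, 0.65 and 2.00 cycles in βTC1, which overlap. The means differed by 1.13 cycles (exact permutation test, p = 0.2), by 0.52 without βTC1 replicate 2 and by 0.67 without αTC1-6 replicate 1. For miR-148a minus miR-148b, the closest pair in sequence, the means were -0.92 ± 1.04 in αTC1-6 and -1.19 ± 0.253 in βTC1 (SD, n = 3 each), a change of 0.27 cycles (exact permutation test, p = 0.7). The 2 arms of a hairpin were read on different cards, so their difference can also hold an offset between the cards. The 2 arms of the miR-148b hairpin were 2.08 ± 0.846 cycles apart in αTC1-6 and 1.26 ± 0.713 in βTC1 (SD, n = 3 each), with overlap (exact permutation test, p = 0.4). For the 2 arms of miR-148a the change was 2.08 cycles, with an SD over 2 cycles in each line (exact permutation test, p = 0.6). In the non-normalized table, which for mmu-miR-148a* holds the first well alone, the change was -0.50. It was 0.38 when undetermined wells were left out, 0.85 without αTC1-6 replicate 3 and 0.75 without βTC1 replicate 2. No direction can therefore be given. The other 15 tests, within αTC1-6, gave exact permutation p-values between 0.3 and 1.0.

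**Figure D4:**
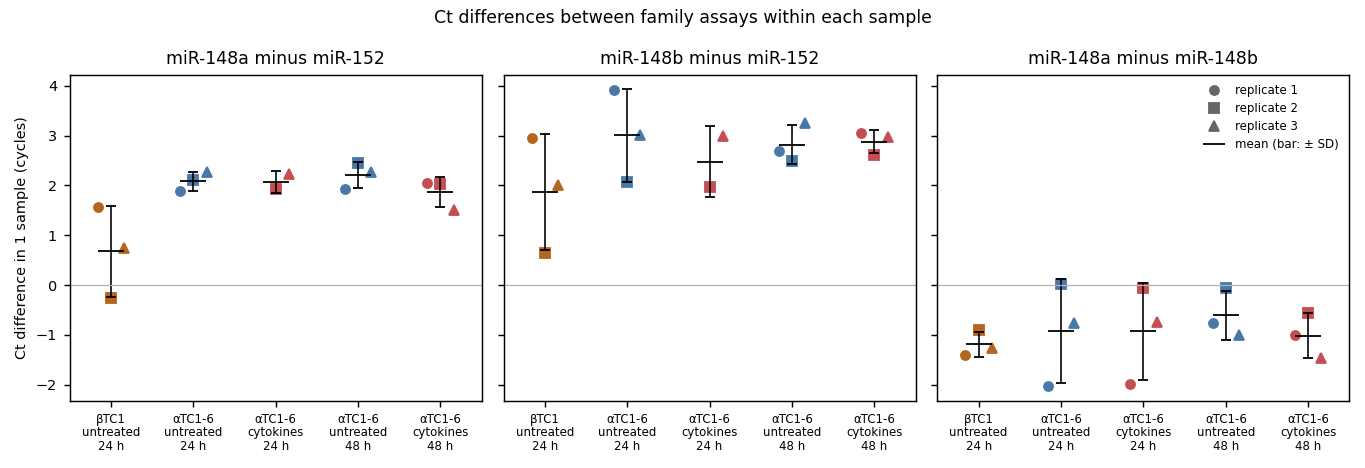
Ct differences between pairs of the 3′ strands within each sample (cycles), with points for replicates and the mean ± SD. The gap between miR-148a and miR-152 lies between 1.51 and 2.45 cycles in αTC1-6 under all treatments and between -0.26 and 1.56 in βTC1.

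After 24 h of treatment with cytokines, the 3 members of card A had lower mean levels in treated than in untreated αTC1-6, by amounts within the spread between replicates for miR-148a and miR-148b. Of the 5 log2 differences 3 were below 0, as were 58.9% of all. In the Limma test 0 of the 5 assays passed the adjusted threshold, against 0.225% of 445 assays, and 0 had an unadjusted p under 0.05, against 4.49%. The samples did not overlap between groups for 1 assay, miR-152, against 13.3% of all. The authors call the untreated controls matched. Treated and untreated samples of the same replicate number deviated together over all assays, so they are also given pair by pair. The Limma intervals of the cytokine comparisons leave this pairing out and also hold the spread between replicates. With the replicate number as a block, the lowest adjusted p of the family in the Limma test was 0.447 at 24 h and 0.176 at 48 h. How often all pairs were lower over all assays was not counted.

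For miR-148a, treated samples had a ΔCt of 6.09, 7.91 and 8.0 against 5.85, 7.43 and 7.52 untreated. Each treated sample was lower in level than the untreated one of its number, by log2 differences of -0.24, -0.48 and -0.49. The groups overlapped, and the Limma log2 difference was -0.40 with an interval of -2.33 to 1.53 (adjusted p = 0.963, n = 3 and 3).

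MiR-148b showed the same order, with a ΔCt of 8.06, 7.96 and 8.76 treated against 7.88, 7.41 and 8.27 untreated. The paired log2 differences were -0.18, -0.55 and -0.49. The groups overlapped, with a Limma log2 difference of -0.41 and an interval of -1.46 to 0.64 (adjusted p = 0.963, n = 3 and 3).

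MiR-152 had a blank value in treated replicate 1. The remaining treated samples had a ΔCt of 5.99 and 5.77, lower in level than the untreated samples at 3.96, 5.34 and 5.25. The Limma log2 difference from these 2 treated samples was -1.03 with an interval of -2.63 to 0.57 (adjusted p = 0.963, n = 2 and 3). The pairs with both values gave -0.65 and -0.52, and the fit with the replicate number as a block gave -0.59. Untreated replicate 1, the partner of the blank sample, had the highest level. The non-normalized table holds a Ct of 22.9 for the blank sample, a ΔCt of 3.98. With that value the groups overlapped, and the log2 difference was -0.40 (Limma test, adjusted p = 0.989).

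Of the 5′ strands, rno-miR-148b-5p had a ΔCt of 9.05, 9.48 and 10.54 treated against 9.27, 10.43 and 10.10 untreated, with 1 of 3 pairs lower. Its Limma log2 difference was 0.25 (adjusted p = 0.970), and that of mmu-miR-148a* was 1.71 with an interval of -1.92 to 5.34 (adjusted p = 0.914, n = 3 and 3 for each). The latter was 0.13 with the first well alone, 0.19 without untreated replicate 3 and 0.01 when undetermined wells were left out.

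After 48 h, 4 of 5 log2 differences were below 0, as were 74.7% of all. The family median was -0.58, beside -0.51 over the 534 assays tested on both cards together. In the Limma test 0 family assays passed, against 0.562% of all. At an unadjusted p under 0.05 there were 0, against 11.2%, and 0 had groups that did not overlap, against 19.3%.

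For miR-148b, treated samples had a ΔCt of 8.47, 8.84 and 9.48 against 7.66, 7.99 and 9.03 untreated. The groups overlapped because replicate 3 had a higher ΔCt than the others in both. All 3 pairs were lower when treated, by -0.81, -0.84 and -0.45, and the Limma log2 difference was -0.70 with an interval of -2.02 to 0.62 (adjusted p = 0.762, n = 3 and 3).

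For miR-152, treated samples had a ΔCt of 5.41, 6.23 and 6.51 against 4.97, 5.49 and 5.77 untreated. All 3 pairs were again lower, by -0.45, -0.74 and -0.74. The Limma log2 difference was -0.64 with an interval of -1.76 to 0.48 (adjusted p = 0.762, n = 3 and 3). Centred on the median of card A in each sample, the differences were -0.39 for miR-148b and -0.33 for miR-152.

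For miR-148a, ΔCt was 7.46, 8.27 and 8.02 treated against 6.89, 7.94 and 8.04 untreated, with overlap and 2 of 3 pairs lower. The Limma log2 difference was -0.29 with an interval of -1.47 to 0.89 (adjusted p = 0.855, n = 3 and 3). It was 0.01 after centring on the median, so no direction can be given.

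Of the 5′ strands at 48 h, rno-miR-148b-5p had a ΔCt of 9.99, 11.08 and 10.34 treated against 9.66, 10.23 and 9.78 untreated. All 3 pairs were lower when treated and the groups overlapped. The Limma log2 difference was -0.58 (adjusted p = 0.461, n = 3 and 3), and it was 0.69 after centring on the median of card B. Mmu-miR-148a* was undetermined in both wells of treated replicate 3. Its log2 difference was 0.26 with an interval of -10.15 to 10.67 (Limma test, adjusted p = 0.963), 1.34 when undetermined wells were left out and 4.12 without treated replicate 3.

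**Figure D5:**
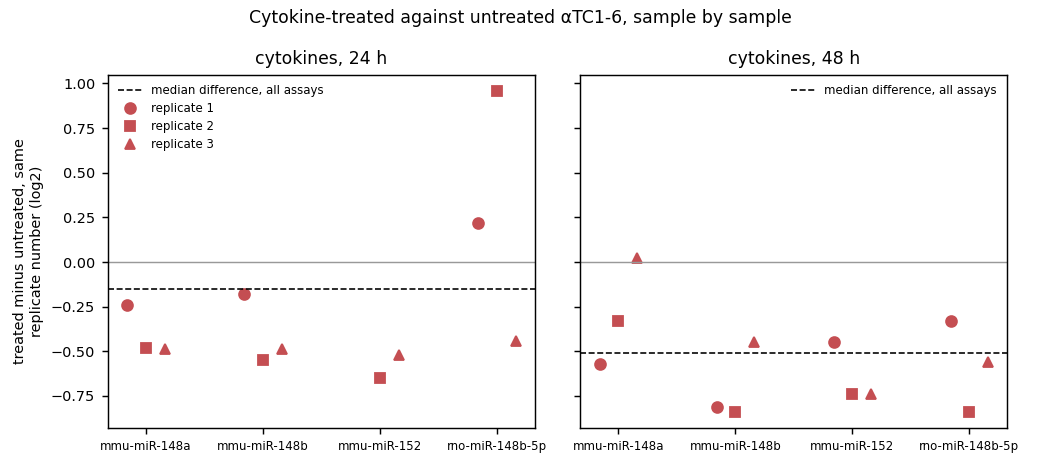
Log2 difference between the treated and the untreated αTC1-6 sample of the same replicate number at 24 h and 48 h, for the 4 family assays with a Ct in every well of a measured sample, and the median difference of all assays (dashed line). At 48 h the points of miR-148b, miR-152 and rno-miR-148b-5p all lie below 0. The median of -0.51 pools both cards. Centred on the median of their own card, the group differences were -0.39, -0.33 and 0.69.

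The cytokine effects at 48 h and 24 h, whose comparisons use different samples, were set against each other by an interaction term over the 12 αTC1-6 samples. The Limma estimates for 48 h minus 24 h were 0.11 for miR-148a, -0.29 for miR-148b and 0.39 for miR-152 (adjusted p = 0.992 for each). They were -1.46 for mmu-miR-148a* and -0.82 for rno-miR-148b-5p (Limma test, adjusted p = 0.847 and 0.563). Of the family 0 passed, against 0.210% of 477 assays, and 0 had an unadjusted p under 0.05, against 3.98%.

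Time in culture was read from untreated αTC1-6 at 48 h minus 24 h. ΔCt at 48 h was 6.89, 7.94 and 8.04 for miR-148a and 4.97, 5.49 and 5.77 for miR-152, overlapping the 24 h samples. Log2 differences were -0.69 for miR-148a, -0.37 for miR-148b, -0.56 for miR-152, -0.93 for mmu-miR-148a* and 0.04 for rno-miR-148b-5p (Limma test, adjusted p between 0.914 and 0.999). Of the 5 assays 0 passed, against 5.93% of 489. At an unadjusted p under 0.05 there were 0, against 8.79%, and 0 had groups that did not overlap, against 14.7%. This comparison shares the untreated samples with the cytokine comparisons. Untreated samples had a Ct in 236 to 258 card A assays at 24 h and in 304 to 324 at 48 h. Over all assays the Limma test gave 29 calls. It gave 0 of 455 with undetermined wells left out, 1 of 361 with a Ct in every sample and 2 of 520 in the non-normalized table. The part of detection in the family's values was not tested.

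Over the 5 conditions, the mean level of miR-148a was in the order βTC1, then αTC1-6 untreated at 24 h, treated at 24 h, untreated at 48 h and treated at 48 h. Mean ΔCt ran from 5.70 ± 0.753 to 7.91 ± 0.410 (SD, n = 3 each). MiR-148b ran from 6.89 ± 0.996 in βTC1 to 8.93 ± 0.509 in treated αTC1-6 at 48 h (SD, n = 3 each). MiR-152 ran from 4.85 ± 0.773 in untreated αTC1-6 at 24 h, with βTC1 next, to 6.05 ± 0.571 in treated αTC1-6 at 48 h (SD, n = 3 each). Treated αTC1-6 at 48 h had the lowest mean of each relative to miR-26a, but for miR-148a the difference from untreated αTC1-6 at 48 h turned sign with other references. For every assay, the ranges of all neighbouring conditions in its order overlapped.

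Other miRNAs known from islets were set beside the family. The list held miR-375, an islet-enriched regulator of insulin secretion, miR-7a, miR-7b, and miR-24, miR-26b and miR-182, which are linked to insulin content. In each of the 5 comparisons 0 of these 6 passed the Limma test, against 29.6% of all assays at steady state, 0.225% and 0.562% with cytokines at 24 h and 48 h, 5.93% over time and 0.210% in the interaction. At steady state their median log2 difference was 0.14, with miR-182 at -2.21 (adjusted p = 0.0692) and miR-375 at -1.06 (adjusted p = 0.171). Their median was -0.21 for cytokines at 24 h and -0.34 at 48 h.

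The miR-29 family, which also acts on DNA methyltransferases, is set beside it. All 3 members, against 29.6% of all assays, were higher in αTC1-6 at steady state, by log2 differences of 2.29 for miR-29a, 2.10 for miR-29b and 1.60 for miR-29c (Limma test, adjusted p = 0.0173, 0.0395 and 0.0372, n = 3 and 3). Under 20 alternatives the call was lost 3 times for miR-29a, 12 times for miR-29b and 10 times for miR-29c, with log2 differences between 1.28 and 2.73. With cytokines 0 of 3 passed at 24 h, against 0.225% of all, and 0 of 3 at 48 h, against 0.562%, with median log2 differences of -0.21 and -0.48. A difference between the miR-29 and the miR-148 and miR-152 families was not tested.

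The miRNAs whose levels followed each member most closely were found among 275 assays with a Ct in all 15 samples. For miR-148a they were miR-132 (Pearson's r = 0.969), miR-744 (r = 0.918) and miR-96 (r = 0.911) over 15 samples. For miR-148b they were let-7a (r = 0.901), miR-340-5p (r = 0.897) and miR-744* (r = 0.876). For miR-152 they were miR-28 (r = 0.918), miR-497 (r = 0.872) and miR-106b (r = 0.854) over the 14 samples with a value. All points share miR-26a as reference, and the median r over the 275 assays was 0.529, 0.442 and 0.414 for the 3 members.

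The members followed each other less closely than these, which were picked as the highest r among the 275 assays. The r was 0.798 between miR-148a and miR-148b over 15 samples, 0.730 between miR-148a and miR-152 and 0.558 between miR-148b and miR-152 over 14. Outside the family, 32 of the 275 assays followed miR-148a more closely than miR-148b did, and 63 more closely than miR-152 did. For miR-148b, 25 followed it more closely than miR-148a did and 107 more closely than miR-152 did. For miR-152, 24 followed it more closely than miR-148a did and 81 more closely than miR-148b did. Centred on the median, which removes miR-26a, the median r was 0.053, 0.066 and 0.063, and r was 0.937 for miR-132 with miR-148a. On that scale r was 0.597 between miR-148a and miR-148b, 0.387 between miR-148a and miR-152 and 0.087 between miR-148b and miR-152. These values are descriptions over samples of 5 conditions.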

How the data were processed

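The authors profiled total RNA of 15 samples on TaqMan rodent cards A and B after preamplification, and deposited 3 tables. The normalized table holds ΔCt, log2 values for which the authors subtracted the Ct of miR-26a, and relative quantities, deposited as the ratio 2 to the power of the negative ΔCt. The non-normalized table holds the deposited Ct. The third table holds the authors' fold changes between samples and was not used. How a normalization to miR-26a alone relates to the multiple reference genes named in the methods is not given in the sources used here. Of 11310 relative quantities, 0 differed from the deposited ΔCt by over 0.001 on the log2 scale.

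Undetermined wells were set to a Ct of 40, blank values were left out, and duplicate card B wells were averaged. Samples were grouped by line, treatment and time. Each comparison was fitted to negative ΔCt over all assays with limma 3.58.1 (R 4.3.3, lmFit and eBayes, two-sided), with Benjamini-Hochberg adjustment within each card and a threshold of 0.05. An assay needed a Ct under 40 in no fewer of the samples compared than lacked one. The 7 control assays and miR-26a itself were not tested. Exact permutation tests used scipy 1.17.1 (Python 3.11.15). The fit was tested on simulated data. Precision is limited by the 3 samples per group and the number of assays with a Ct, 214 to 337 per sample on card A and 174 to 191 on card B. On card A this number was 214 to 276 in the samples of 24 h and 304 to 337 in those of 48 h.

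Named miRNAs are the 5 family assays, a list of islet miRNAs, the miR-29 family, marker lists and, for each 3′ strand, the 3 assays with the highest Pearson's r. The members, lists and tests were chosen with earlier results of these data known. Same-numbered treated and untreated samples deviated together from their group means (r of 0.337, 0.355 and 0.539 at 24 h over 329 assays, and of 0.528, 0.574 and 0.621 at 48 h over 410), so the replicate number was also used as a block. Other alternatives changed the reference, the filter, undetermined wells, the adjustment, the fit, the table or the wells, or left out 1 replicate. The labels name no batch.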

Additional observations from a re-analysis of the deposited data

How the results depend on the processing

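Under the alternatives 0 of the 5 family assays passed the threshold in each comparison, except for 1 (rno-miR-148b-5p, log2 difference -1.64) at steady state on Ct without normalization, where 32.1% of all assays passed. Leaving out each replicate in turn gave 0 to 0 assays. The replicate block gave 0 family calls in all 5 comparisons (lowest adjusted p of limma 0.176, rno-miR-148b-5p at 48 h, and 0.264 for miR-148b and miR-152 there). Over all assays it gave 123 calls against 142 at steady state, 0 against 1 at 24 h, 0 against 3 at 48 h, 23 against 29 over time and 1 against 1 in the interaction, and at steady state the calls of miR-29b (adjusted p of limma 0.0509) and miR-29c (0.0665) were lost. Of the 20 exact permutation tests of differences within samples, 0 passed under any alternative, and with 3 against 3 samples none could go below p = 0.1. Signs of values without a call turned as follows. With U6 and small nucleolar RNAs, miR-152 was -0.08 at steady state, miR-148a 0.05 and rno-miR-148b-5p 0.13 at 48 h, miR-148b 0.02 over time and 0.02 in the interaction. Centred on the median, miR-148a was 0.01 and rno-miR-148b-5p 0.69 at 48 h, rno-miR-148b-5p -0.36 over time, and miR-148b 0.17 and rno-miR-148b-5p 0.55 in the interaction. With 48 h controls miR-152 was -0.39 at steady state. In the family assays of card B, the non-normalized table holds the Ct of the first well for both wells. So it equals the setting with the first well alone for these assays. Both gave -0.04 for rno-miR-148b-5p over time and 0.24 for mmu-miR-148a* in the interaction. In the interaction the non-normalized table also gave -0.24 for miR-152. Undetermined wells as missing gave 1.33 for mmu-miR-148a* there and 0.15 over time. The cause was not tested.

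Without 1 replicate, ranges that cross 0 were -0.27 to 0.42 (miR-152, steady state), -1.02 to 0.14 (miR-148a, 24 h), -0.07 to 0.67 (rno-miR-148b-5p, 24 h), -0.52 to 0.07 (miR-148a, 48 h), -2.19 to 4.12 (mmu-miR-148a*, 48 h), -0.66 to 0.03 (miR-148b, time), -3.21 to 0.81 (mmu-miR-148a*, time), -0.20 to 0.38 (rno-miR-148b-5p, time) and, in the interaction, -0.43 to 0.73 (miR-148a), -0.06 to 0.63 (miR-152) and -3.90 to 2.41 (mmu-miR-148a*). Leaving out any 1 of the 6 steady state samples lost the calls of miR-29b and miR-29c (adjusted p of limma between 0.053 and 0.114). The call of miR-29a was lost when replicate 1 of αTC1-6 (adjusted p of limma 0.0557), its replicate 2 (0.0747) or replicate 1 of βTC1 (0.0536) was left out.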

Other observations

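The decimal part of the Ct values departed from an even spread beyond the family assays. Of 4841 Ct values of card B, 28.3% lay in the last 0.1 of a cycle, as did 43.5% of 4289 on card A in the normalized table and 38.7% of 5035 on card A in the non-normalized table. For the family wells of card B the share was 30.9% of 55. How the instrument software set these values is not given in the sources used here.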
